A study of Mus musculus with 12 samples.

Results

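The comparison set macrophages of mice on a high-fat diet against macrophages of mice on chow, where both had been cultured with red blood cells. It drew on 8 of the 12 arrays of the series. The macrophage donors were C57BL/6 mice, 6 weeks old at the start of 12 weeks on either diet, and their peritoneal macrophages were elicited with thioglycollate, an irritant broth that draws leukocytes into the peritoneal cavity. The macrophages were given red cells of chow-fed mice, red cells of high-fat-fed mice or no red cells, to be taken up by erythrophagocytosis. The exposed arrays formed 4 groups of 2: CC (chow macrophages, chow red cells), CHF (chow macrophages, high-fat red cells), HC (high-fat macrophages, chow red cells) and HHF (high-fat macrophages, high-fat red cells). The 4 arrays without red cells, CNR (chow) and HNR (high-fat), also 2 each, served only to set the difference with red cells beside the difference without. Total RNA was measured on single-colour arrays, and every value below is a log2 signal or a difference between log2 signals, so that 1 unit is a doubling. All 19103 autosomal genes with a probe set of a single symbol were tested, each by its brightest probe set. The difference is always the mean of the 4 exposed high-fat arrays minus the mean of the 4 exposed chow arrays, with the red cell diet in the model, and a gene was called higher or lower at an adjusted p below 0.05 in limma (Benjamini-Hochberg over all genes tested).

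The arrays were numbered as animals, but the labels do not say whether arrays of one macrophage diet with the same number came from one donor, so the p-values measure only the spread between these arrays. With 2 arrays a group their number limits the precision, and without detection calls the signal over background of dim genes was not known. Median signals of the 12 arrays lay between 4.84 and 4.96.

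The macrophage donors of the arms also differed in sex-linked transcripts. Xist, the RNA that silences an X chromosome in female cells, read 9.35 to 9.44 on the 4 exposed chow arrays and 3.52 to 3.69 on the 4 exposed high-fat arrays. The Y-linked Eif2s3y read 3.31 to 3.42 on the chow arrays and 7.38 to 7.72 on the high-fat arrays, Kdm5d read 3.59 to 3.69 against 5.44 to 6.00, and Uty read 2.73 to 3.38 against 5.07 to 5.67. The 4 arrays without red cells had the same pattern. The labels give no sex. The sex of the donors, as these genes read it, and the macrophage diet therefore cannot be told apart for any difference below. Globin signal did not separate the arms. The 4 probe sets annotated to several globin genes read 11.3 to 12.28 on the exposed chow arrays, 11.06 to 12.51 on the exposed high-fat arrays and 4.17 to 5.81 without red cells.

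Macrophages that engulf red cells digest them in phagolysosomes, open the heme ring with heme oxygenase, store or export the iron and have to dispose of membrane cholesterol. Elicited peritoneal macrophages also carry inflammatory programmes: interferon-stimulated genes under the STAT and IRF factors, cytokines under NF-kB, and MHC class II genes under the coactivator CIITA. Sterol synthesis runs under SREBP2, which is released when membrane cholesterol falls, and the chaperones of the endoplasmic reticulum rise when unfolded protein builds up there.

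The split between the macrophage arms, which differ in diet and in sex-linked transcripts together, was the main axis of the 8 exposed arrays. Over the genes tested, arrays of the same macrophage diet correlated at 0.996 or above in all 12 pairs, and arrays of different macrophage diets at 0.9948 or below in all 16 pairs. The first principal component held 41.1% of the variance and placed the chow arrays between -15.44 and -10.63 and the high-fat arrays between 10.60 and 13.49. Of the 19103 genes, 1054 were called (5.52%), 484 higher (2.53%) and 570 lower (2.98%) in high-fat macrophages. The median difference of all genes was 0.01. Small differences made up most of the calls: 767 lay under 0.5 on the log2 scale. Large ones were mostly lower. At a difference of 1 or more, 6 genes were higher and 59 lower, and at 2 or more 1 was higher and 13 lower. The 4 high-fat arrays lay wholly above the 4 chow arrays for 453 of the 484 higher genes and wholly below them for 537 of the 570 lower genes, against 6.58% and 6.82% of all genes. Shares of all genes, 2.53% called higher, 2.98% called lower, 6.58% wholly above and 6.82% wholly below, are the background for the list counts below. The number called was 580 without array CHF1, 559 without CHF2 and 696 without HC2.

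**Figure D1:**
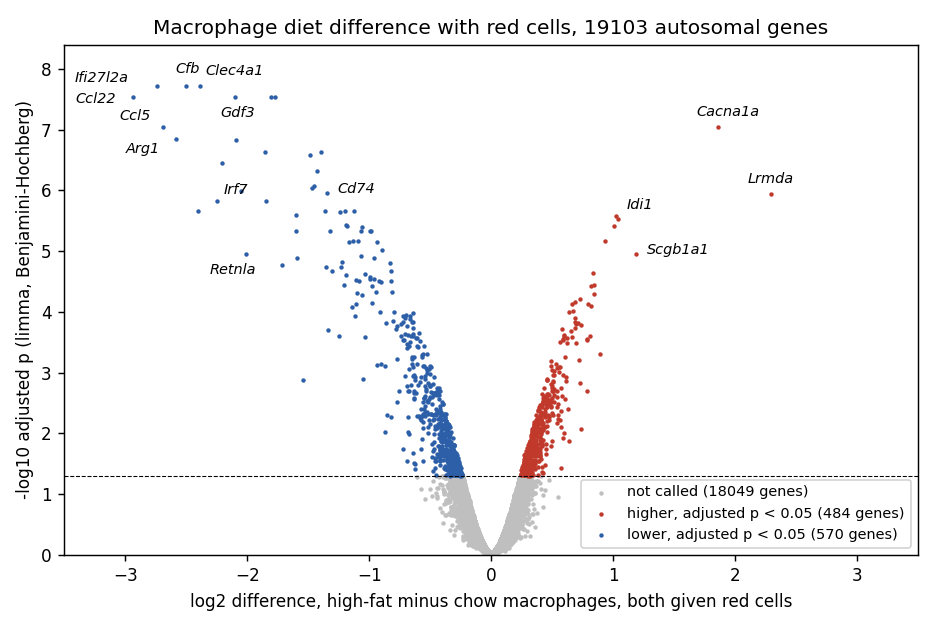
Each point is 1 of the 19103 autosomal genes, with the log2 difference (high-fat minus chow macrophages, both given red cells, 4 arrays against 4) on the x axis and -log10 of limma's adjusted p on the y axis, where the dashed line marks 0.05. The 570 genes called lower reach further from 0 than the 484 called higher, with Ccl22 at -2.94 and Lrmda at 2.29 farthest out.

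The genes with the largest lower signals in high-fat macrophages included secreted immune mediators. In each list of 8 values that follows, the chow arrays come in the order CC1, CC2, CHF1, CHF2 and the high-fat arrays in the order HC1, HC2, HHF1, HHF2. Ccl22, a chemokine that draws T cells through CCR4, read 7.97, 8.11, 7.45 and 7.95 on the chow arrays and 5.23, 5.18, 4.67 and 4.67 on the high-fat arrays. The high-fat arrays were all lower, whichever red cells were given, and the difference was -2.94 ± 0.10 (SE), a ratio of 7.64 in favour of chow (adjusted p = 2.93e-08). Ccl5, a chemokine for T cells and monocytes, read 10.43, 10.65, 10.23 and 10.56 on the chow and 7.84, 7.41, 7.92 and 7.92 on the high-fat arrays. It too had no overlap, with a difference of -2.69 ± 0.11 (adjusted p = 9.09e-08). Because these are bulk samples, fewer cells of a kind that makes a transcript and less of the transcript per cell cannot be told apart.

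Arg1, the arginase that turns arginine into ornithine and urea and a marker of alternative activation, read 10.44, 9.94, 9.95 and 9.74 on the chow arrays and 7.26, 7.41, 7.64 and 7.44 on the high-fat arrays. The lowest chow array stood far above the highest high-fat array, and the difference was -2.58 ± 0.11 (adjusted p = 1.41e-07). Cfb, complement factor B of the alternative pathway, read 9.29, 9.0, 9.20 and 9.16 and 6.76, 6.74, 6.56 and 6.60. Its values were tight within both arms, and the difference was -2.50 ± 0.07 (adjusted p = 1.88e-08). Ifi27l2a, an interferon-inducible gene, read 10.35, 10.47, 10.31 and 10.46 and 7.70, 7.41, 7.70 and 7.84, a difference of -2.74 ± 0.08 (adjusted p = 1.88e-08). The arms of Ifi27l2a did not overlap.

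The other 10 of the 15 largest lower genes were chosen under the same conditions. They were AW112010 (-2.40), the C-type lectin receptor Clec4a1 (-2.38), the interferon regulatory factor Irf7 (-2.25), the actin-binding Aif1, known as the macrophage marker Iba1 (-2.21), the TGF-beta family ligand Gdf3 (-2.10), the tetraspan membrane proteins Ms4a4a (-2.09) and Ms4a6b (-2.06), the secreted alternative activation marker Retnla (-2.01), the lipopolysaccharide-sensing caspase Casp4 (-1.85) and the nonclassical MHC gene H2-M2 (-1.84). Their standard errors were 0.07 to 0.15, and each was called with either kind of red cell.

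The largest higher signals were of another kind. Lrmda, a leucine-rich repeat gene named for melanocyte differentiation, read 4.85, 5.26, 4.76 and 5.31 on the chow arrays and 7.28, 7.30, 7.28 and 7.50 on the high-fat arrays. All high-fat arrays were higher, by 2.29 ± 0.12 on average, a ratio of 4.9 (adjusted p = 1.13e-06). Cacna1a, the pore subunit of a voltage-gated calcium channel best known from neurons, read 4.82, 4.96, 5.04 and 5.11 and 6.86, 7.05, 6.67 and 6.81. The difference was 1.86 ± 0.07 (adjusted p = 9.09e-08), and no high-fat array overlapped the chow arrays. Scgb1a1, a secretoglobin of airway club cells, was higher by 1.19 ± 0.09. Lat, an adaptor of T cell receptor signalling, was higher by 1.04 ± 0.06. The T and NK cell markers Cd3e, Cd3g, Cd4, Cd8a, Ncr1 and Klrb1c had 0 calls among 6 (0 at an unadjusted p below 0.05), beside 5.52% of all genes. Their mean level was low, at 3.89 to 4.01 on the high-fat arrays and 3.89 to 3.99 on the chow arrays. A part of T cells in the Lat difference was not tested.

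Among the next largest higher genes were the sterol enzyme Idi1 (1.02), Mamdc2 (1.01), the sorting receptor Sort1 (0.93), the prostaglandin transporter Slco2a1 (0.84), von Willebrand factor Vwf (0.84), the heparan sulfate-cleaving heparanase Hpse (0.84), the integrin Itgax, known as CD11c (0.82), the sialic acid-binding receptor Cd33 (0.82), the immunoglobulin-domain protein Vsig8 (0.81) and Herpud1 of endoplasmic reticulum-associated degradation (0.80). Itgax read 9.93, 9.75, 9.88 and 9.77 on the chow arrays and 10.66, 10.72, 10.58 and 10.67 on the high-fat arrays, and it was bright in both arms. For these 10 too, high-fat arrays wholly above the chow arrays were a condition of the choice.

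**Figure D2:**
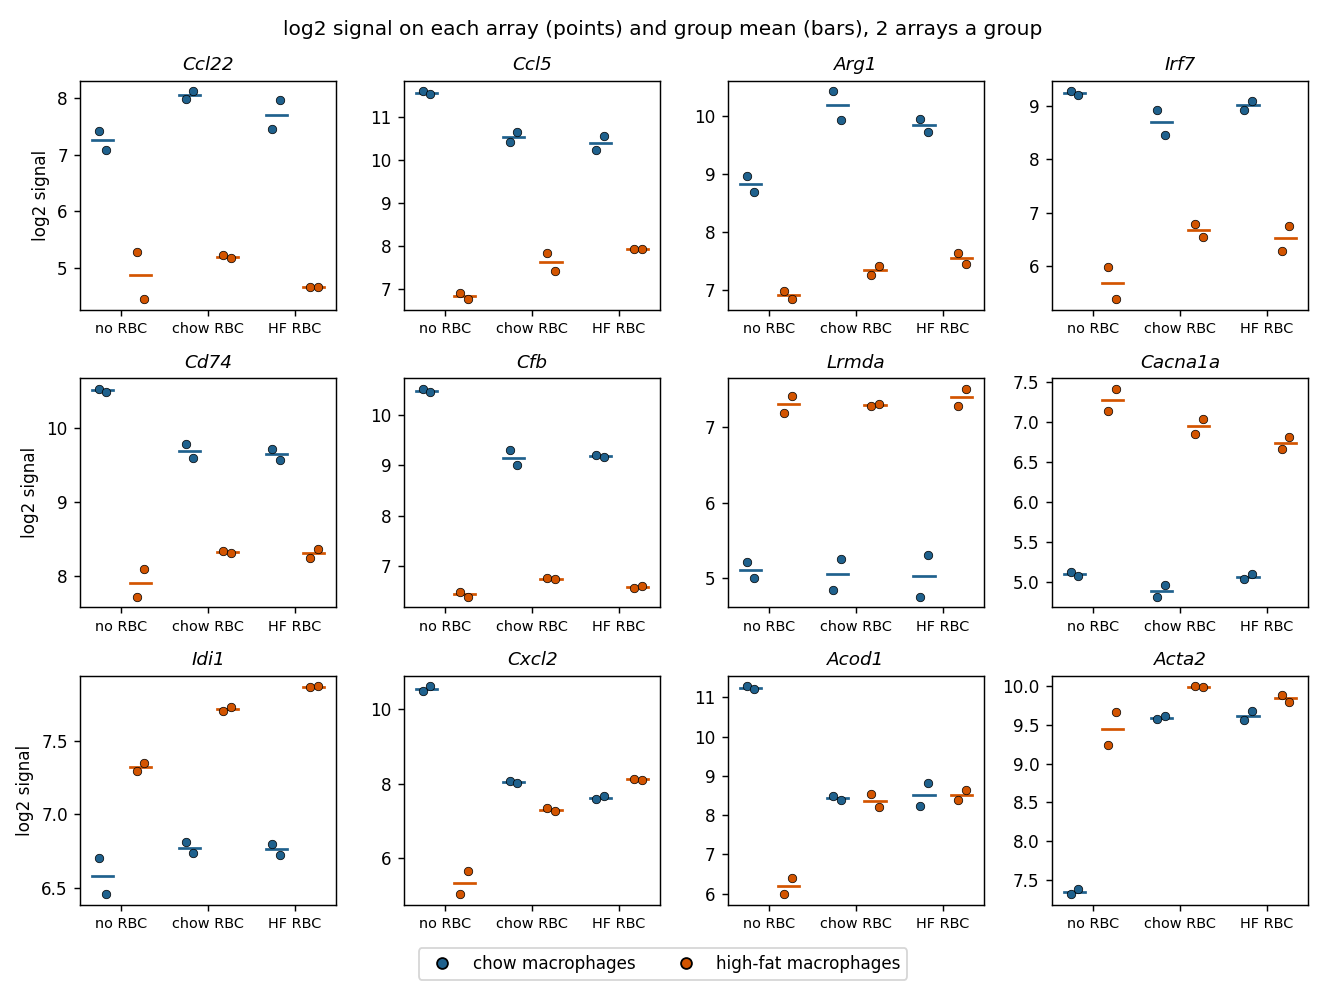
Each panel gives 1 gene's log2 signal (y axis, own scale in each panel) on every array (points, 2 a group) with the group mean (bar), by red cells given (x axis: none, chow, high-fat) and macrophage diet (colour). Ccl22, Ccl5, Arg1, Irf7, Cd74 and Cfb are lower and Lrmda, Cacna1a and Idi1 higher in high-fat macrophages in every column, whereas Cxcl2 and Acod1 stand furthest apart without red cells.

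Interferon-stimulated genes were lower in high-fat macrophages. Of 28 measured members, which encode antiviral effectors, sensors and feedback regulators, 0 were higher and 16 lower, beside 2.98% of all genes lower. The median difference was -0.54 beside 0.01 for all genes. The high-fat arrays lay wholly below the chow arrays for 19 of the 28, beside 6.82% of all genes. The mean level of the list was 6.31 to 6.57 on the high-fat arrays and 6.92 to 7.19 on the chow arrays. Irf7, the factor that amplifies type I interferon production, read 8.93, 8.45, 8.92 and 9.09 on the chow arrays and 6.79, 6.55, 6.29 and 6.76 on the high-fat arrays. No high-fat array came within 1 unit of a chow array, and the difference of -2.25 ± 0.13 (adjusted p = 1.53e-06) was the largest of the list.

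The antiviral effectors differed less. Ifit3, a tetratricopeptide protein that binds with Ifit1, read 8.24, 7.70, 7.58 and 7.87 on the chow and 6.49, 6.74, 6.14 and 6.67 on the high-fat arrays, a difference of -1.34 ± 0.14 (adjusted p = 0.000201). Oas3, which makes the second messenger of RNase L, differed by -1.19 ± 0.07, and the related Oasl2 by -1.13 ± 0.08. The nucleic acid sensor Zbp1 differed by -1.31, Rtp4 by -1.03, Ifit1 by -0.85 and the virion tether Bst2 by -0.82. The arms did not overlap for any of these 7. The 12 members not called had differences between -0.57 and 0.00.

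The 250 bases before the RefSeq start sites (GRCm38.p6) of Ifit3 and Oas3 are shown because both genes were lower and carry the interferon-stimulated response element, searched as GAAANNGAAA on both strands, in capitals. The window of Ifit3 is chr19:34583279-34583528 on the plus strand, and that of Oas3 is chr5:120777660-120777909 on the minus strand, each written along its gene.
Ifit3: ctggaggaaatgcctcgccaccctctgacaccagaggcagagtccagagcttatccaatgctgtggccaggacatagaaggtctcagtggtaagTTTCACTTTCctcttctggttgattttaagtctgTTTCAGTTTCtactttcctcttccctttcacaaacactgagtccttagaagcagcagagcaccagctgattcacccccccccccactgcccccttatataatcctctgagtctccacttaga
Oas3: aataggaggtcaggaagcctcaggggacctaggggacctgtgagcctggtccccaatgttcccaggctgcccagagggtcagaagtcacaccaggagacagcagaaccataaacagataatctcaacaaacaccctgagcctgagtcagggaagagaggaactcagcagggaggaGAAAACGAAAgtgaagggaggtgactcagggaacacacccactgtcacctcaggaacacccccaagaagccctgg
Windows were held for 20 of the 28 members, and 9 of the 20 had a match. Among all 27025 genes with such a window, 3.46% had one. Of the 9, Bst2, Ifi205, Ifit1, Ifit3, Oas1a and Oas3 were called lower, and Rsad2, Stat2 and Trim30a were not called. Of those without a match, Ifi35, Irf7, Oasl1, Oasl2 and Xaf1 were called lower.

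Genes of antigen presentation and costimulation, a list wider than MHC class II, were lower as a group. Of 16 measured members, 0 were higher and 12 lower, beside 2.98% of all genes lower, with a median difference of -0.62. The high-fat arrays lay wholly below the chow arrays for 13, beside 6.82% of all genes. Cd74, the invariant chain that escorts class II molecules, read 9.79, 9.60, 9.71 and 9.57 on the chow arrays and 8.34, 8.32, 8.25 and 8.37 on the high-fat arrays. The values within each arm spanned little, and the difference was -1.35 ± 0.07 (adjusted p = 1.09e-06). The class II chains H2-Ab1, H2-Aa and H2-Eb1 differed by -1.19, -1.18 and -1.11, with standard errors of 0.07 to 0.10. Tap1, which pumps peptides to class I molecules, differed by -0.98 ± 0.09. Ciita, the gene of the class II coactivator, was not called, at 0.01 ± 0.08.

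B cells also carry class II molecules, and B cell markers were lower on the same arrays. Cd79a and Cd79b, the signalling chains of the B cell receptor, differed by -1.16 ± 0.08 and -0.99 ± 0.08. Ms4a1, known as CD20, differed by -0.45 ± 0.10 (adjusted p = 0.0282), a call lost without any one of CC1, CHF1, CHF2, HC1, HC2 or HHF2 (-0.48 to -0.33). In all, 3 of 4 measured B cell markers were lower, with Pax5 at -0.24 not called, and their mean level was 4.08 to 4.23 on the high-fat arrays and 4.71 to 5.04 on the chow arrays. Their part in the class II result was not tested.

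The promoter of H2-Aa, chr17:34287824-34288073 on the minus strand, is shown for its Y box, searched as CTGATTGG on both strands and given in capitals, an element of class II promoters bound by NF-Y.
H2-Aa: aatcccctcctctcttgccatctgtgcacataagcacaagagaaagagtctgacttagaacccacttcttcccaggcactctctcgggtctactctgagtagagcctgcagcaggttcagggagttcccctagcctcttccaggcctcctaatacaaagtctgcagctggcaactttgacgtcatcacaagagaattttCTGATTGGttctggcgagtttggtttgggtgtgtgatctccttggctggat
Of 10 members with a window, 4 had a match (H2-Aa, H2-Eb1, Psmb9 and Tap1, all called lower), against 4.43% of all genes with one. Of the 6 without a match 4 were called lower too (Cd274, Cd80, H2-DMa and Psmb8). These letters hold within them the shorter CCAAT box ATTGG that is given further on for the sterol genes.

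Guanylate-binding proteins and immunity-related GTPases, both induced by interferon-gamma, were lower in part. Of 8 measured members, 6 of the first family and 2 of the second (Irgm1 and Iigp1, not called), 2 were lower beside 2.98% of all genes, and 6 of the 8 had an unadjusted p below 0.05. Gbp9 was lower by -0.97 ± 0.08 and Gbp4 by -0.34 ± 0.08. Gbp4 was dim, at 2.68 to 3.28, and its call was lost without CC2, CHF2, either HC or either HHF array (-0.35 to -0.27). The median of the 8 was -0.42, and they had no member above 0.

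Chemokines split by member. Of 21 measured, 9 were lower and 1 higher, with a median of -0.16. Besides Ccl22 and Ccl5, the lower ones included Cxcl9, the interferon-induced ligand of CXCR3, which read 5.78, 5.73, 6.57 and 6.03 on the chow and 4.62, 4.26, 4.52 and 4.33 on the high-fat arrays (-1.59 ± 0.12). The neutrophil-attracting Cxcl3 differed by -1.36 ± 0.10 and Cxcl1 by -0.45 ± 0.07, and the scavenger chemokine Cxcl16 by -0.59 ± 0.06. The arms did not overlap for these 4. The monocyte attractant Ccl2 was not called, at 0.27 ± 0.08 (adjusted p = 0.0749), but it passed the threshold under 4 alternatives, among them quantile normalization (0.29).

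Cxcl2, a ligand of the neutrophil receptor CXCR2, was the only gene of 19103 (0.00523%) whose macrophage diet difference depended on the red cell diet at an adjusted p below 0.05. It read 8.06 and 8.0 in CC, 7.34 and 7.25 in HC, 7.59 and 7.66 in CHF, and 8.13 and 8.11 in HHF. High-fat macrophages were thus below chow macrophages with chow red cells, by -0.73, and above them with high-fat red cells, by 0.49. The difference of the differences was 1.23 ± 0.13 (adjusted p = 0.0189 in limma), and averaged over the red cells the difference was -0.12. That call was lost without any one of the 8 arrays. At an unadjusted p below 0.05 the same test gave 895 genes. The next smallest adjusted p, 0.430, belonged to Greb1l, at 0.78 ± 0.13, and Lcn2, at 0.82 ± 0.13.

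Cytokines under NF-kB were mostly not called with red cells present. Of 29 measured members, 3 were higher and 4 lower, with a median of -0.05. In the fit of all 12 arrays 3 were higher and 0 lower. Il1f9, the gene of interleukin-36 gamma, was higher by 0.79 ± 0.09, reading 6.07, 6.33, 7.03 and 6.79 on the chow and 6.88, 6.67, 7.88 and 7.94 on the high-fat arrays. Its arms overlapped, since both readings were higher where high-fat red cells had been given, but the difference held with either kind (0.57 and 1.00). The lower members were the costimulatory Cd83 (-0.34 ± 0.07), the nuclear regulator Bcl3 (-0.30 ± 0.07), the cytokine Il1a (-0.29 ± 0.07) and the receptor adaptor Traf1 (-0.29 ± 0.07), the latter 2 named after their values were seen. Their arms did not overlap, but each call was lost without any one of CHF1, CHF2, HC1, HC2 or HHF1 and in the fit of all 12 arrays, and that of Traf1 also after quantile normalization and with a replicate block. Cd83 was also lost without CC2, Bcl3 without CC1 or CC2, and Il1a and Traf1 without CC1 or HHF2 (-0.35 to -0.24 over the 4 genes). The macrophage growth factor Csf1 was higher by 0.49 ± 0.07 and the adhesion molecule Icam1 by 0.37 ± 0.07, a call lost without CHF1 (0.33). The proinflammatory cytokines Tnf, at -0.16 ± 0.08, and Il1b, at -0.18 ± 0.10, were not called.

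Several genes of complement and Fc receptors were lower. All 3 chains of C1q, the complement recognition protein that macrophages make themselves, were lower, and they are counted in the engulfment list given further on: C1qa by -1.12 ± 0.07, C1qb by -0.94 ± 0.07 and C1qc by -0.83 ± 0.06. C1qc read 10.91, 10.87, 10.81 and 10.80 on the chow and 9.98, 9.88, 10.08 and 10.13 on the high-fat arrays, without overlap. The receptor for the complement fragment C5a, C5ar1, was lower by -1.20 ± 0.07. Of 13 other complement genes 3 were lower, namely Cfb, C5ar1 and the complement inhibitor Cd59a (-0.57 ± 0.11, a call lost without CC1, CC2 or HHF2, at -0.57 to -0.53), and 1 higher, the complement receptor chain Itgax, with a median of -0.12. Of 5 Fc gamma receptor genes 3 were lower and 0 higher: the high-affinity activating receptor Fcgr1 by -1.24 ± 0.07, Fcgr4 by -0.40 and the inhibitory Fcgr2b by -0.39.

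Of 14 Toll-like receptor and adaptor genes 4 were lower and 0 higher, with a median of -0.08. The lipopolysaccharide co-receptor Cd14 differed by -0.65 ± 0.07, Tlr1 by -0.52 ± 0.08 and Tlr4 by -0.45 ± 0.06, without overlap of the arms. The scavenger receptor Marco, which binds bacteria and lipoproteins, was lower by -1.08 ± 0.09. Engulfment genes went both ways, with 3 of 24 higher and 4 lower and a median of -0.01. The 4 lower ones were the 3 chains of C1q and the scavenger receptor Stab1 (-0.56 ± 0.07), which was named after its value was seen. The higher ones included the phosphatidylserine bridge Pros1 (0.70 ± 0.07) and the integrin chain Itgb3 (0.73 ± 0.07), which binds bridged prey. Mertk, the engulfment receptor that Pros1 serves, was not called, at 0.04 ± 0.07.

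Alternative activation markers did not move as one. Beside Arg1, which stands in the immunometabolic list, Retnla read 5.71, 6.51, 6.07 and 6.26 on the chow and 4.07, 3.77, 4.33 and 4.34 on the high-fat arrays, with no overlap. The interleukin-4 receptor chain Il4ra was lower by -0.39 ± 0.06. The mannose receptor Mrc1 was not called, at 0.16 ± 0.06, and of the 12 measured markers 3 were lower and 0 higher, with a median of -0.08. Among 14 immunometabolic genes 4 were lower and 1 higher. They included Slc7a2, a carrier of arginine into the cell, at -0.62 ± 0.07, and the fatty acid receptor Gpr84, at -0.74 ± 0.08.

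Sterol synthesis genes were higher. Of 17 measured members, 14 were higher and 0 lower, beside 2.53% of all genes higher, with a median of 0.60. The high-fat arrays lay wholly above the chow arrays for 15, beside 6.58% of all genes. The mean level of the list was 7.81 to 7.90 on the high-fat arrays and 7.33 to 7.38 on the chow arrays. Idi1, which isomerises the isoprene unit, read 6.81, 6.74, 6.80 and 6.73 on the chow arrays and 7.71, 7.73, 7.86 and 7.87 on the high-fat arrays. The 4 values of an arm lay close together, and the difference was 1.02 ± 0.06 (adjusted p = 2.62e-06). Hmgcs1, the synthase that feeds the pathway, read 8.26, 8.28, 8.26 and 8.16 and 8.74, 8.97, 8.99 and 8.90. Its difference was 0.66 ± 0.07 (adjusted p = 0.000259), with no overlap. The mevalonate decarboxylase Mvd was higher by 0.69 ± 0.07, and the lanosterol-processing enzymes Msmo1 and Cyp51 by 0.66 ± 0.06 and 0.64 ± 0.06. The 3 members not called were Pmvk at -0.06, Sqle at 0.09 and Srebf2, the gene of SREBP2 itself, at 0.17.

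The promoters of Idi1 (chr13:8885356-8885605) and Hmgcs1 (chr13:119690101-119690350), both on the plus strand, are shown with their CCAAT boxes in capitals, searched as ATTGG on both strands, since NF-Y on such boxes works beside SREBP.
Idi1: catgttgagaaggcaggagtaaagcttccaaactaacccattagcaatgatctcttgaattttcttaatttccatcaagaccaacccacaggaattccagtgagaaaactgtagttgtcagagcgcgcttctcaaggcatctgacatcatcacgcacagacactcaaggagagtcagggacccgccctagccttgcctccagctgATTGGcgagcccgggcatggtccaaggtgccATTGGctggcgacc
Hmgcs1: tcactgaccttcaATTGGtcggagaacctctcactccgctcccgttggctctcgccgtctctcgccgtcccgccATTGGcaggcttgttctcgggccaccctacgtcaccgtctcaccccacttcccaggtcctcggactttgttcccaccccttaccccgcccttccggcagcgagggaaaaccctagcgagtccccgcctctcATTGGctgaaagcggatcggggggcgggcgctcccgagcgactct
Idi1 had 2 matches and Hmgcs1 3. All 13 members with a window had at least one, but so short a motif was also found in 37.5% of all genes with a window.

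Fatty acid synthesis genes were higher in part. Of 14 measured, 5 were higher and 0 lower, with a median of 0.24. The desaturase Scd2 led, reading 7.34, 7.40, 7.33 and 7.13 on the chow and 8.21, 8.0, 7.78 and 8.35 on the high-fat arrays (0.79 ± 0.11). The fatty acid synthase Fasn was higher by 0.34 ± 0.07, a call lost without CC1, CHF1, CHF2, HC2 or HHF1 (0.29 to 0.35), and the desaturase Fads2 by 0.42 ± 0.09, a call lost without CC1, CHF1, CHF2 or HHF2 (0.38 to 0.43). Export and uptake of lipid had few calls. Of 13 LXR and efflux genes 1 was higher and 1 lower, with the cholesterol exporter Abca1 at -0.19 ± 0.07 not called. Of 25 lipid uptake, storage and oxidation genes 3 were higher and 2 lower (7 and 2 after quantile normalization), with the fatty acid translocase Cd36 at 0.09 ± 0.06 not called.

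Chaperones of the endoplasmic reticulum were higher. Of 20 measured, 10 were higher and 0 lower, beside 2.53% of all genes higher, with a median of 0.27. The high-fat arrays lay wholly above the chow arrays for 14, beside 6.58% of all genes. Hspa5, the chief chaperone BiP, was bright in both arms and read 10.51, 10.44, 10.44 and 10.49 on the chow and 10.92, 10.88, 10.74 and 10.92 on the high-fat arrays. The difference was 0.39 ± 0.07 (adjusted p = 0.00564). Herpud1 read 7.07, 7.12, 7.10 and 7.30 and 8.01, 7.83, 7.97 and 7.95, the largest difference of the list at 0.80 ± 0.07. Sdf2l1, a partner of BiP, was higher by 0.52 ± 0.07. Creld2, a secreted stress protein chosen for its promoter after its values were seen, was higher by 0.38 ± 0.08, a call lost without CHF1, CHF2, HC1 or HHF2 (0.34 to 0.38).

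The promoters of Hspa5 (chr2:34771840-34772089) and Creld2 (chr15:88819396-88819645), both on the plus strand, are shown with the endoplasmic reticulum stress element in capitals. It was searched as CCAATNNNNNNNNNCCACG on both strands, and in Creld2 it runs in the reverse direction.
Hspa5: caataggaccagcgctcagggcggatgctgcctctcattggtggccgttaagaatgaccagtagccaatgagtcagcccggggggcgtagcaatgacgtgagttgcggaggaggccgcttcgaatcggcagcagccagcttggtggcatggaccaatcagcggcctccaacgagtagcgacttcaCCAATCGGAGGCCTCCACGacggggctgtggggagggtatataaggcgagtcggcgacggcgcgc
Creld2: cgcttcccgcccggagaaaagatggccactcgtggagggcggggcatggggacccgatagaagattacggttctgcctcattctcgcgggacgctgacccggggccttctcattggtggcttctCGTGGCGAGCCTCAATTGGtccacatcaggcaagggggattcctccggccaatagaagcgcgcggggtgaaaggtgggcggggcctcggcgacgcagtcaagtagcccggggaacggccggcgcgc
Of 18 members with a window, 8 had a match, against 0.13% of all genes with one. The 8 were Creld2, Dnajc3, Hsp90b1, Hspa5 and Pdia6, which were called higher, and Calr, Canx and Ero1b, which were not called. Of those without a match, Herpud1, Sdf2l1 and Sel1l were called higher too.

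Targets of ATF4, the factor of the integrated stress response, did not follow the chaperones. Of 21 measured, 2 were higher and 6 lower, with a median of -0.04. Ddit3, the transcription factor CHOP, read 9.42, 9.28, 9.31 and 9.29 on the chow arrays and 8.38, 8.42, 8.32 and 8.25 on the high-fat arrays. It was lower on every high-fat array, by -0.98 ± 0.07 on average (adjusted p = 4.66e-06). The stress regulators Nupr1 and Trib3 were lower by -0.69 ± 0.07 and -0.61 ± 0.07, and the amino acid carrier chain Slc3a2 by -0.38 ± 0.06.

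**Figure D3:**
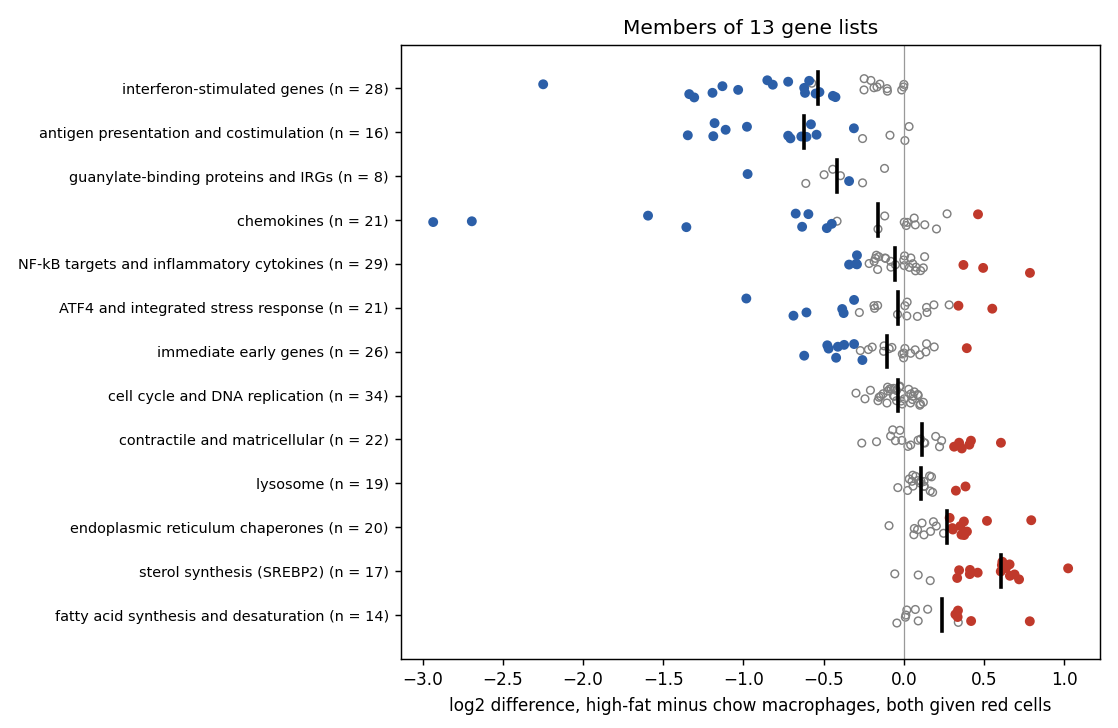
Each point is 1 measured member of 1 of 13 gene lists (y axis, number measured in brackets), at its log2 difference between high-fat and chow macrophages given red cells (x axis). Filled points were called (blue lower, red higher), open ones were not, and black bars are list medians, from -0.62 for antigen presentation to 0.60 for sterol synthesis.

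Genes of red cell digestion differed little between the arms. Hmox1, the heme oxygenase, read 11.92, 11.92, 11.91 and 11.85 on the chow and 11.71, 11.71, 11.58 and 11.78 on the high-fat arrays and was not called (-0.21 ± 0.07, adjusted p = 0.114), although a fit with an intensity trend called it (adjusted p = 0.0053). Of 19 heme and iron genes 1 was higher and 1 lower. The iron exporter ferroportin, Slc40a1, was higher by 0.58 ± 0.09, reading 4.04, 4.07, 4.21 and 4.55 and 4.34, 4.46, 5.30 and 5.10. Its arms overlapped. The transferrin receptor Tfrc was lower by -0.55 ± 0.08, and the metal-binding Mt2 by -0.64 ± 0.09. The arms of Mt2 overlapped, and it was not called with high-fat red cells (-0.49). Mt1 was not called either, at -0.03 ± 0.08. Of 19 lysosomal genes 2 were higher and 0 lower (median 0.11), and of 20 genes of the NRF2 and glutathione response 1 was lower and 0 higher (median 0.02; 1 and 1 after quantile normalization).

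Among other lists, 8 of 26 immediate early genes were lower and 1 higher, with a median of -0.11. The phosphatase genes Dusp1 and Dusp4, which switch off MAP kinases, were lower by -0.62 ± 0.08 and -0.48 ± 0.07, and the AP-1 gene Fos by -0.42 ± 0.06. The angiogenic factor Vegfa was lower by -0.87 ± 0.11. The hypoxia-inducible Ankrd37 was lower by -1.05 ± 0.14, with the highest readings of the chow arm in CC (7.58 and 6.93). It differed by -1.67 with chow red cells, called, and by -0.43 with high-fat red cells, not called, and the test between the 2 gave no call (adjusted p = 0.739 in limma). Of 22 glycolysis and hypoxia genes 4 were lower and 1 higher (median -0.06; 2 and 1 in the fit of all 12 arrays), and of 19 genes of oxidative phosphorylation and the citric acid cycle 1 was higher and 0 lower (median -0.01). Of 17 adhesion molecules 6 were higher and 1 lower (median 0.12), among them Itgax and the selectin ligand Selplg (0.43 ± 0.06). The collagenase Mmp8 was lower by -1.10 ± 0.09, and of 17 matrix proteases and inhibitors 1 was lower and 2 higher (median 0.07; 2 and 4 after quantile normalization).

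Macrophage identity was present in both arms. Lyz2, the lysozyme of myeloid cells, read 12.39, 12.31, 12.45 and 12.40 on the chow and 12.43, 12.36, 12.37 and 12.41 on the high-fat arrays, a difference of 0.00 ± 0.06 that turned to -0.04 under quantile normalization and was not called under either. Of 7 macrophage markers 0 were higher and 2 lower, namely Fcgr1 and Adgre1, a macrophage adhesion receptor (-0.46 ± 0.08), and the receptor for the growth factor CSF1, Csf1r, was not called (-0.12). The identity regulator Maf was lower by -0.53 ± 0.08. Markers of other cells, where the shares called stand beside 5.52% of all genes, were called in part. The chemokine receptor Ccr7 of migrating dendritic cells was lower by -1.05 ± 0.09, the only call among 5 dendritic cell markers, whose mean level was 4.30 to 4.48 on the high-fat arrays and 4.51 to 4.63 on the chow arrays. Of 3 monocyte markers 2 were lower, Plac8 by -0.82 ± 0.14 and the chemokine receptor Ccr2 by -0.29 ± 0.07, with overlapping arms for Ccr2 and a call lost without any one array other than HHF1 (-0.34 to -0.25) and in the fit of all 12 arrays. The mean level of the monocyte markers was 4.92 to 5.28 on the high-fat arrays and 5.19 to 5.61 on the chow arrays, and their part in the other differences was not tested. Of 4 eosinophil markers 1 was higher and 1 lower. Pf4, a platelet chemokine also made by macrophages, was lower by -1.06 ± 0.07, with 0 other calls among 6 platelet markers. Of 4 erythroid markers 0 were called (0 at an unadjusted p below 0.05). Of 9 neutrophil markers, 2 were lower and 1 higher. The lower ones included the collagenase Mmp8 given above (-1.10 ± 0.09), whose arms did not overlap. The neutrophil calprotectin chain S100a9 was higher by 0.31 ± 0.07, a call lost without any one array other than CC2 (0.27 to 0.36), in the additive model and in the fit of all 12 arrays. It differed by -0.01 with chow red cells, not called, and by 0.63 with high-fat red cells, called. The test between the 2 gave no call (adjusted p = 0.739 in limma), and the arms overlapped.

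The macrophage diets were also compared within each red cell diet. With chow red cells, HC minus CC gave 527 calls (2.76%), 202 higher (1.06%) and 325 lower (1.70%). With high-fat red cells, HHF minus CHF gave 288 (1.51%), 106 higher (0.555%) and 182 lower (0.953%). The 2 contrasts share no array, and 217 genes were called in both in the same direction, which is a share of 41.2% of the first set and 75.3% of the second. Arg1 differed by -2.86 with chow and -2.31 with high-fat red cells, Irf7 by -2.02 and -2.48, and Idi1 by 0.94 and 1.10. With 2 arrays against 2 these counts leaned on single arrays. The chow red cell count fell to 199 without CC1, 253 without CC2, 205 without HC1, 187 without HC2 and 349 without CHF1 or without CHF2, and the high-fat red cell count to 119 without CHF1, 104 without CHF2, 149 without HHF1 and 173 without HHF2.

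More genes were called between the macrophage diets without red cells than with them. HNR minus CNR, in the fit of all 12 arrays, gave 2699 calls (14.1%), 1556 higher (8.15%) and 1143 lower (5.98%). The difference with red cells gave 927 calls in the same fit. Of the 484 genes higher with red cells, 323 were also higher and 9 lower without them, and of the 570 lower ones 348 were also lower and 13 higher. Whether the difference itself changed was tested over all 12 arrays. It did for 1103 genes (5.77%), more positive with red cells for 510 (2.67%) and more negative for 593 (3.10%), and for 558 without the second CNR array. Among the 570 genes lower with red cells, the difference was more positive than without red cells for 154 and more negative for 34. For the other 382 the change was not called. Among the 484 higher genes it was more negative for 79 and more positive for 25, and for 380 the change was not called.

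The 28 interferon-stimulated genes had a median difference of -1.89 without red cells, and 27 were lower. For 27 the difference was more positive with red cells (2.67% of all genes), and the median change was 1.33. Ifit1 read 8.51 and 8.23 on the chow and 4.08 and 3.86 on the high-fat arrays without red cells, a difference of -4.40 ± 0.20 beside -0.85 with them. Ifit3 and Rtp4 differed by -4.98 and -4.51 without red cells, where the high-fat arrays were far below the chow arrays. The antigen presentation genes had a median of -1.07 without red cells, with 12 lower, and the difference was more positive with red cells for 8 of 16.

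Several inflammatory genes differed by a wide margin without red cells and hardly with them. Acod1, which makes itaconate, read 11.28 and 11.21 on the chow and 5.99 and 6.39 on the high-fat arrays without red cells, and 8.48, 8.39, 8.24 and 8.82 against 8.54, 8.21, 8.39 and 8.64 with them. The difference of -5.05 ± 0.18 without red cells stood beside -0.04 ± 0.12 with them, where the arms overlapped and the sign turned without CHF2, HC2 or HHF1 (0.03 to 0.11). Cxcl2 read 10.46 and 10.60 against 5.04 and 5.65 without red cells, a difference of -5.19 ± 0.15. Tnf differed by -2.17 ± 0.11 and Il1b by -1.83 ± 0.15 without red cells.

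Ptges, the inducible prostaglandin E synthase, differed by -3.95 ± 0.14 without and by -0.37 ± 0.08 with red cells, a call lost without CC2, CHF1, CHF2, HC2 or HHF2 (-0.39 to -0.31). Ptgs2, the cyclooxygenase before it, differed by -1.86 ± 0.12 without red cells and was not called with them, at 0.19 ± 0.09. The change in the difference passed the test for each of Cxcl2, Acod1, Tnf, Il1b, Ptges and Ptgs2 (8.39e-05 was the highest adjusted p of the 6).

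In the other direction, contractile and proliferation genes differed less with red cells. Of 22 contractile and matricellular genes, 13 were higher without red cells (median 0.68) and 6 with them (median 0.12), and for 10 the difference was more negative with red cells. Acta2, smooth muscle actin, read 7.31 and 7.38 on the chow and 9.24 and 9.67 on the high-fat arrays without red cells, and 9.57, 9.61, 9.56 and 9.68 against 9.997, 9.993, 9.885 and 9.801 with them. Its difference went from 2.11 ± 0.12 to 0.31 ± 0.06, and the latter call was lost without CHF1, HC1, HC2 or HHF1 (0.28 to 0.32) and in the fit of all 12 arrays. Myl9, a myosin light chain, went from 2.22 to 0.20, not called, and the muscle ankyrin repeat gene Ankrd1 from 2.12 to 0.61, still higher. The matricellular Ccn1 was higher by 0.42 ± 0.09 with red cells, a call lost without CC1, CHF1 or HHF2 (0.35 to 0.40), and the actin-binding Tagln by 0.36 ± 0.07, a call lost without CHF1 (0.33).

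Of 34 cell cycle genes, 19 were higher without red cells (median 0.45), whereas with red cells 0 were called in limma in either direction (median -0.04), and 3 passed at an unadjusted p below 0.05. For 14 the difference was more negative with red cells, beside 3.10% of all genes. Top2a, the topoisomerase of dividing cells, differed by 0.78 ± 0.11 without and by -0.21 ± 0.07 with them.

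The sterol list kept its direction. Without red cells 8 of 17 were higher (median 0.35), and the change in the difference passed the test for 2, positive for Mvd and negative for Dhcr7 (-0.82, named after its value was seen). Mvd differed by 0.03 ± 0.12 without and 0.69 ± 0.07 with red cells, and Idi1 by 0.74 ± 0.10 and 1.02 ± 0.06. Of the 20 chaperones only Herpud1 had a change past the test, at -0.11 ± 0.13 without and 0.80 ± 0.07 with red cells (adjusted p of the change = 0.00328). Gm5150 differed by 0.24 ± 0.18 without and by -1.46 ± 0.07 with red cells, where it read 8.30, 8.29, 7.94 and 7.80 on the chow and 6.52, 6.64, 6.55 and 6.79 on the high-fat arrays. Among the largest differences, that of Ccl22 changed by -0.56 ± 0.27, of Arg1 by -0.66 ± 0.19 and of Lrmda by 0.12 ± 0.21. That of Cacna1a changed by -0.31 ± 0.14 and of Gdf3 by -0.21 ± 0.13, and these 5 changes did not pass the test. The change of Ifi27l2a, 0.65 ± 0.21, did not pass either. Other large differences were smaller with red cells, by changes that passed the test. Among the lower genes these were Ccl5 (2.1), AW112010 (1.9), Ms4a6b (1.7), Cfb (1.5), Irf7 (1.3) and Ms4a4a (1.2). H2-M2 (1.1), Clec4a1 (1.1), Casp4 (1.0), Retnla (0.9) and Aif1 (0.8) belonged there too. Among the higher genes they were Mamdc2 (-1.1), Hpse (-0.7) and Sort1 (-0.5).

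**Figure D4:**
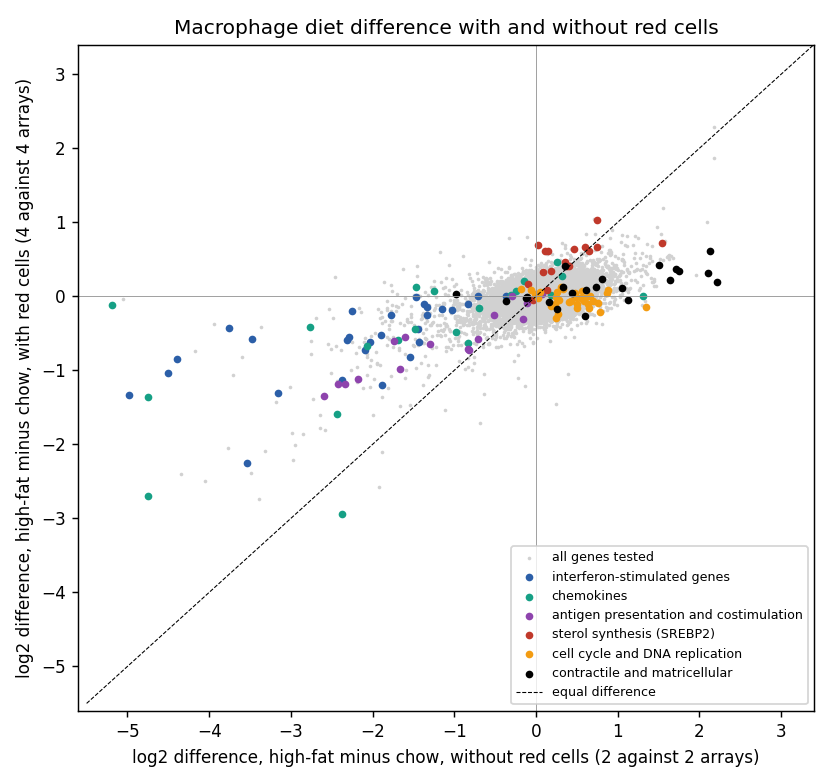
Each point is a gene, with the log2 difference between high-fat and chow macrophages without red cells on the x axis (2 arrays against 2) and with red cells on the y axis (4 against 4), and the dashed line marks equal differences. Interferon-stimulated genes lie left of the line with a median of -1.89 on x and -0.54 on y, cell cycle genes spread along x (median 0.45) at about 0 on y, and 16 of the 17 sterol genes sit above 0 on y.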

How the data were processed

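Total RNA of 12 peritoneal macrophage samples was biotin-labelled and hybridised to single-colour arrays, 1 array a sample, in 6 groups of 2 by macrophage diet and red cells given, per the labels. The authors deposited log2 values per probe set; summarization, background correction and normalization were not given in the sources used here, and the deposited values were used without rescaling. Of 35557 probe sets, 21789 carried a single symbol in the platform annotation, which can be old. Where probe sets shared a gene, the brightest (mean of the 12 arrays) stood for it, which left 19103 autosomal genes. X-linked, Y-linked and unplaced genes were not tested.

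The 8 exposed arrays were fitted with 1 mean per group in limma 3.58.1 (R 4.3.3), with Benjamini-Hochberg adjustment over all genes tested. The difference without red cells, and its change, came from the same fit to all 12 arrays. The scripts were tested on simulated data. Genes were named by rule. It took the 15 and 15 largest called differences among genes of the same sign with either red cell diet and without overlap of the arms. It also took up to 5 and 5 per other contrast, the 5 of smallest p in each gene list, and a fixed set. A gene outside the rule is marked, except members named only in the promoter searches or as not called. Members, lists and motifs were chosen with earlier results of these data known, so they are no independent evidence. Promoter sequences are RefSeq's (GRCm38.p6). Alternatives changed the threshold, normalization, filter, variance model, probe set rule, blocks, model and arrays used.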

Additional observations from a re-analysis of the deposited data

Results flagged for a closer look

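The macrophage diet difference with red cells differed from that without them for 1103 genes (limma, 12 arrays, adjusted p below 0.05). The largest changes toward the positive were those of Cxcl2 (5.07), Acod1 (5.02), Ifit3 (3.64), Ptges (3.58) and Ifit1 (3.55), in log2 units with minus without red cells. The largest toward the negative were those of Myl9 (-2.02), Acta2 (-1.79), Gm5150 (-1.70), Cmbl (-1.67) and Ankrd1 (-1.52). Cmbl, a hydrolase, differed by 1.95 ± 0.13 (SE) without red cells and by 0.28 ± 0.10 with them, where it was not called.

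The difference depended on the red cell diet for 1 gene, Cxcl2, by 1.23.

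Signal of Y-linked genes, which were not among the genes tested, was higher on the exposed high-fat than on the exposed chow arrays: by 4.17 for Eif2s3y, 2.09 for Kdm5d and 2.48 for Uty. The test for single outlying samples needs 4 samples in a group and could not be applied to groups of 2.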

How the results depend on the processing

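The count of 1054 genes averaged over the red cells was 1678 at an adjusted p below 0.10 and 203 (50 higher, 153 lower) where at least 1.5-fold was also asked. It lay between 927 and 1575 under the other settings that keep all arrays, and between 559 and 902 with 1 array left out. With chow red cells the 527 calls became 910 at 0.10, 239 at 1.5-fold and 962 with an intensity trend and robust variances, and 187 to 507 with an array left out. With high-fat red cells the 288 became 457, 173 and 513, and 104 to 261. The single interaction call became 0 in the fit of all 12 arrays and 0 without any one array. The 1103 changed differences ranged from 558 to 1107 with an array left out. Replicate numbers gave no sign of pairing: deviations of same-numbered arrays correlated at -0.187 to 0.067 over the 6 group pairs. Of these pairs only CC with CHF (0.032) and HC with HHF (-0.078) share a macrophage diet. With 2 arrays a group such correlations cannot exclude a shared donor. A replicate block gave 962 genes averaged (433 higher, 529 lower), 449, 248, 0 for the interaction and 1054 for the change.

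Of the named genes, 128 were followed through the alternatives. Members named only in the promoter searches, such as Cd80 and Hsp90b1, were not. Among the 128, 7 of 112 called ones (Acta2, Bcl3, Ccr2, Cd83, Il1a, S100a9 and Traf1) lost the call under a setting that keeps all arrays, 17 lost it with an array left out, and 0 changed sign. Of genes not called, Lyz2 (0.00) read -0.039 after quantile normalization and -0.018 to 0.023 with an array left out, and Acod1 (-0.04) -0.18 to 0.11 with an array left out. After quantile normalization 50.8% of the calls averaged over red cells were higher, beside 45.9%. For the members called of each list, tried after quantile normalization and in the fit of all 12 arrays, the balance of higher over lower members turned for the NF-kB list alone (3 and 4, but 3 and 0 in the fit of all 12 arrays). Signal over background was not known, so low readings set no limit on absence.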

Other observations

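Lists that the comparisons above did not describe had calls in part, beside 5.52% of all genes called. Of 18 prostaglandin and leukotriene genes 2 were higher and 3 lower in high-fat macrophages given red cells, with a median of 0.00, and 1 and 2 in the fit of all 12 arrays. Of 10 metallothionein and zinc genes 3 were lower, Mt2 among them, and 0 higher. Of 20 macrophage identity regulators 3 were lower and 0 higher (median -0.10), and of 5 markers of large resident peritoneal macrophages 1 was lower. Of 9 reference transcripts 1 was higher and 1 lower, the latter Tfrc. Of 8 mesothelial and fibroblast markers 1 was lower, and 0 of 5 mast cell and basophil and 0 of 3 adipocyte markers were called in limma (3 and 0 at an unadjusted p below 0.05). Apart from Mt2 and Tfrc no gene of these lists is singled out here.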
